A study of Homo sapiens with 2 samples.

Results

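The genes described here are 31 genes of the folding, degradation and stress signalling machinery of the endoplasmic reticulum (ER). They were taken as a fixed list of symbols, chosen with earlier results of these data known. All 31 were found among the 36601 genes of the count tables. The cells were HepaRG, an established human hepatic line sold in terminally differentiated form and used as a liver model. They were grown for 7 days on collagen and then given the vehicle, 0.1% DMSO, for 24 h. Both libraries belong to this vehicle group and carry the same biological replicate label, so they may be technical repeats. Every p-value speaks only for these 2 libraries and rests on a variance moderated across genes. The study set vehicle cells against cells treated with stress-inducing chemicals; the treated cells were not analysed here, so no treatment comparison was made. Levels were instead compared between 3 groups of cells within each library. ALB-high cells had at least 50 UMIs of albumin per 10000 UMIs, mesenchymal-like cells were the top 20% by a score of COL3A1, SPARC, LUM and PDGFRB, and remaining cells were all others. None of these 5 genes is among the 31. Dissociation used a medium with DTT, which reduces disulfide bonds, and with actinomycin D and anisomycin, which block transcription and translation, and the cells were then fixed. The part of that treatment in the levels below was not tested.

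Proteins bound for secretion enter the ER through the translocon, fold there with the help of chaperones, lectins and disulfide isomerases, and are pulled back to the cytosol for destruction when folding fails. When unfolded protein builds up, the sensors IRE1 (gene ERN1), PERK (EIF2AK3) and ATF6 start the unfolded protein response. IRE1 splices XBP1 mRNA into the form that encodes an active transcription factor, ATF6 is cut to release another, and PERK slows translation and favours ATF4. Hepatocytes secrete albumin and most other plasma proteins and need this machinery at all times. Counts of 3′ ends show how much XBP1 mRNA there is but not whether it was spliced, nor whether a sensor was active.

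Many of these genes are known to answer to ATF6 and XBP1 through a short promoter sequence, the ER stress element (ERSE), so the promoters are shown first. RefSeq promoter windows (GRCh38.p14) ran from 250 bases before to 50 bases after each annotated start and were held for 29 of the 31 genes; PDIA3 and DERL1 are named only. On either strand, ERSE (CCAAT, then any 9 bases, then CCACG) was found in 6 of the 29 windows, against 0.0806% of 27305 RefSeq promoter windows. The shorter ERSE-II (ATTGG, then any base, then CCACG) was found in 3 of the 29 windows, against 0.0549% of all windows. The UPRE core (TGACGTGG) was found in 1 of the 29, that of HYOU1, where it overlaps an ERSE-II, against 0.795% of all windows. Together 9 of the 29 windows (31%) held at least 1 of these sequences, against 0.927% of all windows. Several of these genes are textbook targets of the response, so the matches are a description of the list and not independent evidence. The following stretches hold every match, read 5′ to 3′ on the strand of the gene, with the match in capitals and 20 bases on each side; in the first HYOU1 stretch the capitals cover the ERSE-II and the UPRE together.
HSPA5, chr9:125241371-125241429, minus strand: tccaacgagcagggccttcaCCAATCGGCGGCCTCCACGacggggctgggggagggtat
HSP90B1, chr12:103930196-103930254, plus strand: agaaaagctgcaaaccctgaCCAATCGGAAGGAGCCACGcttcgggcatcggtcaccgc
HSP90B1, second stretch, chr12:103930301-103930359, plus strand: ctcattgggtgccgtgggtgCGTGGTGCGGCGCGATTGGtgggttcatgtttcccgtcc
HYOU1, chr11:119057360-119057410, minus strand: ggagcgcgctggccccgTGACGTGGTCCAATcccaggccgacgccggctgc
HYOU1, second stretch, chr11:119057254-119057304, minus strand: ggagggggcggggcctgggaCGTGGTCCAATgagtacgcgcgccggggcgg
SDF2L1, chr22:21642094-21642144, plus strand: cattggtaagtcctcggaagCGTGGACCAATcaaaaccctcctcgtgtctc
CRELD2, chr22:49918534-49918592, plus strand: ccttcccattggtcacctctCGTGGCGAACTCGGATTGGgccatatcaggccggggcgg
CALR, chr19:12938364-12938422, plus strand: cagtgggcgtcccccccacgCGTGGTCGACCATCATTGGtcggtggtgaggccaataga
CANX, chr5:179698758-179698816, plus strand: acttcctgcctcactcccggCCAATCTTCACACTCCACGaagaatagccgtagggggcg
HERPUD1, chr16:56932005-56932055, plus strand: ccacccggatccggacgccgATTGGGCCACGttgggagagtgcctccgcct
XBP1, chr22:28800583-28800641, minus strand: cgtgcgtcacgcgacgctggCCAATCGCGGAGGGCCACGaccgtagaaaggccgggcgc

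The ERSE of HSPA5, which encodes the main ER chaperone BiP, lay at -66 to -48 bases from the annotated start. That of XBP1 lay at -52 to -34, and that of CRELD2 at -80 to -62 on the other strand. HSP90B1 held 2 ERSE matches, and HYOU1 held 2 ERSE-II matches and the UPRE. No ERSE, ERSE-II or UPRE match lay in the window of DNAJB9, the gene with the largest fold change below, or in the windows of the other 19 genes with a window. The bases before the start of HSPA5 and of DNAJB9 are set beside each other because these genes behaved differently across the cell groups; capitals mark CCAAT and CCACG, the 2 ends of ERSE, on either strand.
HSPA5, chr9:125241344-125241593, minus strand: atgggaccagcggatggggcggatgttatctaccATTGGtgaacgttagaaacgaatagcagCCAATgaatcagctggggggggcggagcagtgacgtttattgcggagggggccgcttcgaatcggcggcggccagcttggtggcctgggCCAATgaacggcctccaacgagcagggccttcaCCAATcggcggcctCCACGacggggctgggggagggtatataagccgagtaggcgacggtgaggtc
DNAJB9, chr7:108569624-108569873, plus strand: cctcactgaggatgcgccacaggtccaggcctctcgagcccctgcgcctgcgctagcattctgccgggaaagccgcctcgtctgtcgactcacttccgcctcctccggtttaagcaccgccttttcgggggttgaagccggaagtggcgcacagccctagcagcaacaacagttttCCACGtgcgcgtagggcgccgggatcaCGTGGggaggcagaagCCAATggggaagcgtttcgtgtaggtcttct
The HSPA5 stretch held 4 CCAAT and 1 CCACG, and the DNAJB9 stretch held 1 CCAAT and 2 CCACG. Over the whole windows, CCACG was found in 21 and CCAAT in 25 of the 29 genes, against 37.9% and 35.7% of all windows. These letters are a description and do not show that a factor binds there.

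**Figure D1:**
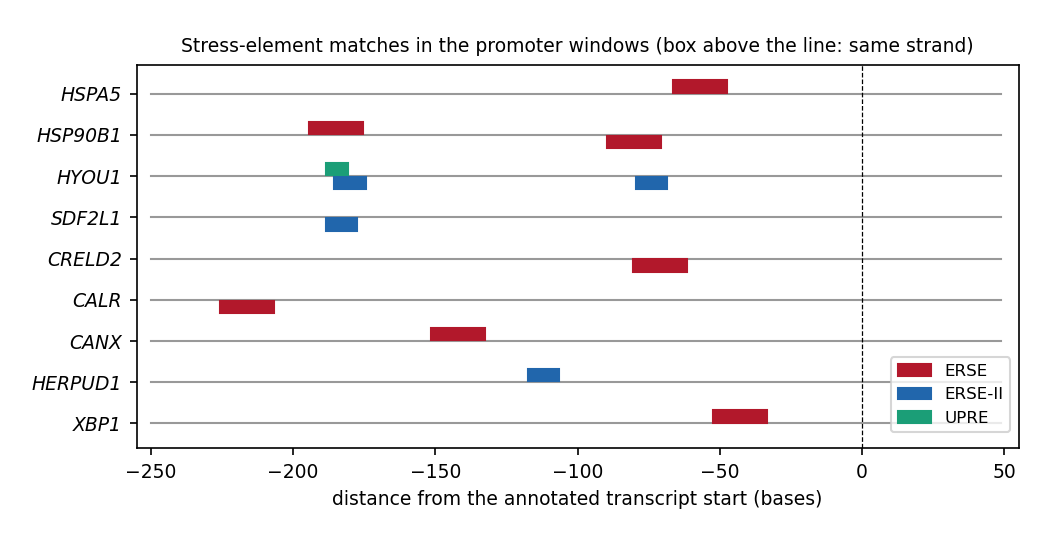
Positions of ERSE, ERSE-II and UPRE matches in the promoter windows of the 9 genes that held one, as distance in bases from the annotated transcript start; boxes above the line are on the gene's strand and boxes below on the other. All matches lie upstream of the start, between -225 (CALR) and -34 (XBP1).

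Replicate 1 held 4591 barcodes with a median of 17328 UMIs, and replicate 2 held 4998 barcodes with a median of 10300 UMIs, so replicate 1 was the deeper library. The 2 libraries shared 10 barcodes. After filtering, there were 306 and 407 ALB-high cells, 889 and 967 mesenchymal-like cells and 3259 and 3520 remaining cells in replicates 1 and 2, and pairs of values below always give replicate 1 before replicate 2. Their median depths were 20653 and 12441 UMIs in ALB-high cells, 15663 and 9780 in mesenchymal-like cells and 17821 and 10413.5 in remaining cells. The limits cut through continuous ranges: 130 and 149 cells outside the ALB-high group had 25 to 50 albumin UMIs per 10000, and 367 and 397 cells had a mesenchymal score within 0.05 of the limit. The 14 hepatocyte markers outside the rule were all highest in ALB-high cells of both libraries and summed to 121 and 114 UMIs per 10000 there, against 10.1 and 10.9 in remaining cells. Of the 14, 3 were under 0.1 UMIs per 10000 even in ALB-high cells. These were APOA2 (1 and 3 UMIs), CYP3A4 (11 and 6 UMIs) and CYP2E1 (20 and 22 UMIs). The mesenchymal name fits less well. Outside the rule, 4 of 8 mesenchymal markers were highest in mesenchymal-like cells, with a summed level of 2.22 and 2.20 there against 1.02 and 1.07 in remaining cells. VIM, COL1A2 and THY1 were near 0 in all 3 groups, with THY1 at 0 UMIs in mesenchymal-like cells. The dividing-cell marker UBE2C was near 0 too, with 12 and 11 UMIs in remaining cells, where MKI67 had 16928 and 10732. Why such genes had so few UMIs was not tested, so these low levels do not decide the name. Biliary and progenitor markers summed to 11.6 and 11.6 UMIs per 10000 in mesenchymal-like cells, against 8.02 and 8.11 in remaining cells, and most of that difference was KRT19 (9.37 and 9.20, against 5.82 and 5.92). SOX9 was lower in mesenchymal-like cells (0.045 and 0.056, against 0.068 and 0.070 in remaining cells). Cells with at least 2 dividing-cell markers made up 42.2% and 40.0% of ALB-high cells, 64.9% and 63.3% of mesenchymal-like cells and 75.7% and 69.1% of remaining cells. The median mitochondrial share was 13.5% and 13.6% in ALB-high cells, 8.31% and 8.46% in mesenchymal-like cells and 8.84% and 8.98% in remaining cells.

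Over all kept cells, the genes ran from HSP90B1, the ER form of HSP90, at a mean of 8.32 UMIs per 10000 and rank 130 of 30507 genes with a UMI, to ERN1 at 0.0991 and rank 10225. CALR (6.46), PDIA6 (4.22) and HSPA5 (3.72) followed HSP90B1. A level here is a number of 3′ tags and was not divided by transcript length. Whether intronic reads were counted is not known, and the part of gene length in the levels was not tested. The summed level of the 31 genes was 49.3 and 49.2 UMIs per 10000 in ALB-high cells, 55.1 and 53.5 in mesenchymal-like cells and 45.1 and 45.0 in remaining cells. The mesenchymal-like cells were highest in both libraries and the remaining cells lowest, and the libraries of one group differed by less than the groups did. By role, mesenchymal-like cells were highest for the chaperones and cochaperones (20.4 and 19.6, against 15.6 and 15.4 in remaining cells). ALB-high cells were highest for the degradation genes (4.67 and 4.93, against 3.78 and 3.78 in remaining cells) and for the sensors with XBP1 (2.52 and 2.41, against 1.46 and 1.45 in remaining cells).

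**Figure D2:**
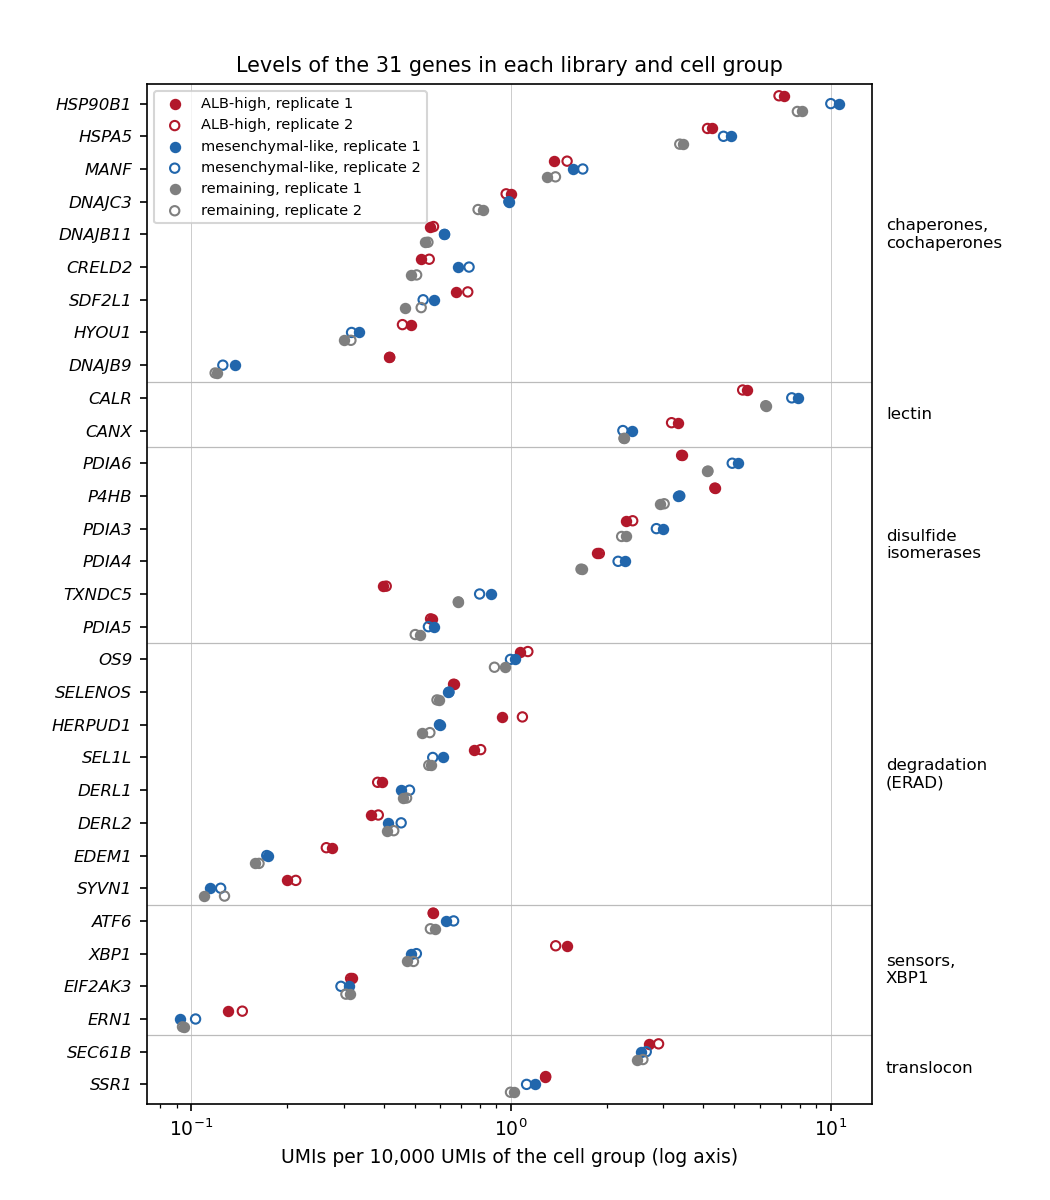
Levels of the 31 genes in UMIs per 10000 UMIs of the cell group on a log axis, ordered by role and level; filled points are replicate 1 and open points replicate 2. The points of one cell group lie close together, and XBP1 and DNAJB9 stand apart in ALB-high cells (1.5 and 1.38, and 0.415 and 0.418).

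In ALB-high cells against remaining cells, 23 of the 31 genes were higher and 2 were lower (edgeR quasi-likelihood test on summed counts, Benjamini-Hochberg adjusted p below 0.05 over 19626 genes), and 6 were not called. Over all genes tested, 24.8% were called higher and 24.4% lower. The median log2 fold change of the 31 genes was 0.31, against -0.02 over all genes. In mesenchymal-like cells against remaining cells, 16 were higher, none was lower and 15 were not called, against 12.9% higher and 11.7% lower over all genes, and the median was 0.13 against 0.00. In ALB-high cells against mesenchymal-like cells, 17 were higher, 6 were lower and 8 were not called, against 24.3% higher and 25.9% lower over all genes, and the median was 0.21 against -0.04. The comparisons share their groups, so their counts are not independent of each other. Fold changes were scaled by TMM, and the levels by the UMIs of the group, which includes the large albumin share of ALB-high cells. With UMI totals in place of TMM, the median of all genes moved to -0.16 for ALB-high against remaining cells and to -0.19 for ALB-high against mesenchymal-like cells. The split of all calls then moved to 3673 higher and 6461 lower for ALB-high against remaining cells, and to 3594 higher and 6811 lower for ALB-high against mesenchymal-like cells. Among the 31 genes, 5 were then lower in ALB-high than in remaining cells, and 12 lower than in mesenchymal-like cells. The share of dividing cells moves with these groups; without cells holding 2 or more dividing-cell markers, 23 of the 31 were higher and 1 lower in ALB-high than in remaining cells. The same removal left 11 genes higher and none lower in mesenchymal-like than in remaining cells. Over all 15824 genes then tested, 3356 were higher and 2964 lower in the first of these comparisons. In the second, 1298 were higher and 1141 lower.

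**Figure D3:**
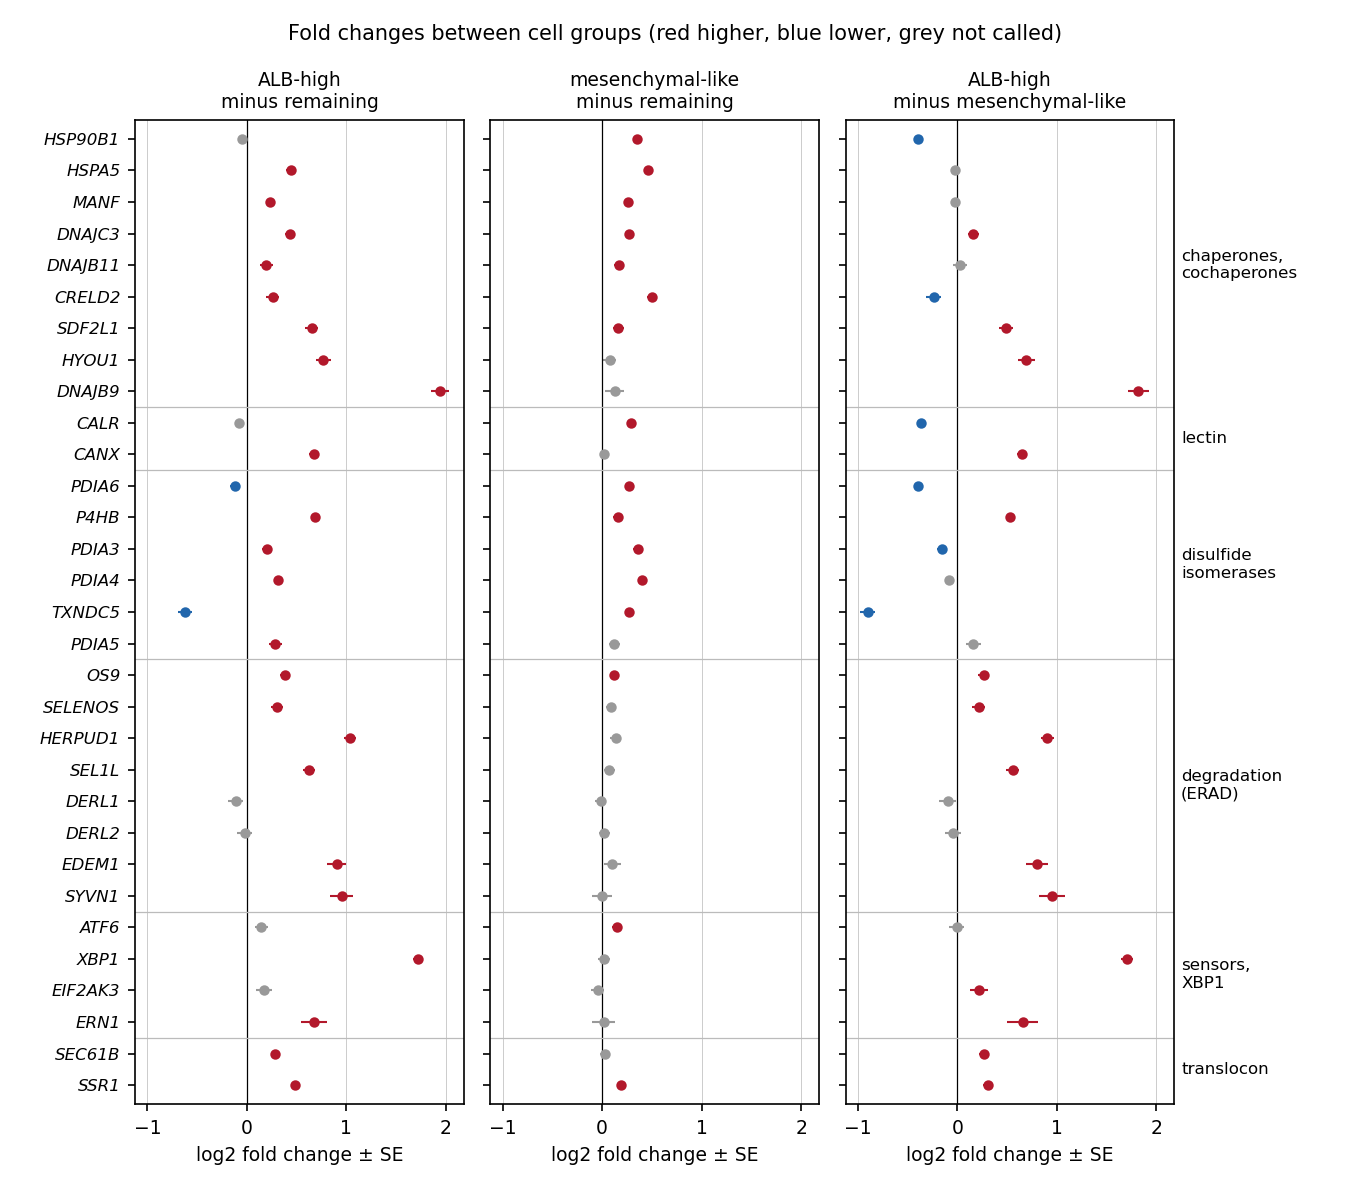
Log2 fold changes of the 31 genes with standard errors for the 3 comparisons; red points are higher, blue points lower and grey points not called at an adjusted p of 0.05. DNAJB9 (1.94) and XBP1 (1.72) lead in ALB-high against remaining cells, and TXNDC5 (-0.62) is lowest there.

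Among the 9 chaperones and cochaperones, 8 were higher in ALB-high than in remaining cells and 7 were higher in mesenchymal-like than in remaining cells. Over all genes, 24.8% and 12.9% were called higher in these comparisons. HSPA5 had 4.26 and 4.12 UMIs per 10000 in ALB-high cells, 4.88 and 4.62 in mesenchymal-like cells and 3.44 and 3.37 in remaining cells. Both named groups stood above the remaining cells with no overlap, by 0.44 ± 0.04 on the log2 scale (standard error; adjusted p = 4.3e-13) in ALB-high cells and by 0.46 ± 0.04 (adjusted p = 8.6e-14) in mesenchymal-like cells. Between ALB-high and mesenchymal-like cells the log2 fold change of HSPA5 was -0.02 ± 0.04 and was not called, although it was called lower in ALB-high cells with UMI totals (-0.18) and with the top 10% of mesenchymal scores in place of 20% (-0.13).

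HSP90B1, the most abundant of the 31, showed another pattern. It had 7.14 and 6.89 UMIs per 10000 in ALB-high cells, 10.6 and 10.0 in mesenchymal-like cells and 8.12 and 7.87 in remaining cells. Its level was highest in mesenchymal-like cells, where the log2 fold change over remaining cells was 0.35 ± 0.04 (adjusted p = 6.4e-11). Against mesenchymal-like cells it fell in ALB-high cells by 0.40 on the log2 scale (adjusted p = 1.0e-12). Against remaining cells its log2 fold change in ALB-high cells was -0.05 ± 0.04 and was not called with TMM, and it was called lower with UMI totals (-0.19). GRP94, its product, folds a narrower set of clients than BiP.

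DNAJB9 encodes ERdj4, a J-domain partner of BiP that helps BiP to hold IRE1 inactive. It had 0.415 and 0.418 UMIs per 10000 in ALB-high cells, 0.137 and 0.126 in mesenchymal-like cells and 0.120 and 0.119 in remaining cells. The ALB-high libraries stood well apart, 3.84-fold above remaining cells (log2 1.94 ± 0.09, adjusted p = 2.2e-26), and 97.1% of all genes tested had a lower log2 fold change. Over mesenchymal-like cells the log2 fold change was 1.82 ± 0.11, while mesenchymal-like and remaining cells did not differ past the threshold (0.13 ± 0.10). A DNAJB9 UMI was found in 51.0% and 40.5% of ALB-high cells, 19.8% and 12% of mesenchymal-like cells and 18.6% and 12.1% of remaining cells. With every cell thinned to 4000 UMIs, the shares were 17.4% and 15.7%, 6.00% and 5.60%, and 5.06% and 4.79% in the same order of groups.

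HYOU1, an exchange factor for BiP, had 0.488 and 0.458 UMIs per 10000 in ALB-high cells, 0.334 and 0.317 in mesenchymal-like cells and 0.300 and 0.316 in remaining cells. It was higher in ALB-high than in remaining cells (log2 0.77 ± 0.07, adjusted p = 2.6e-13), and the values of the other two groups lay close together. SDF2L1, which works with ER J-proteins, had 0.673 and 0.733 UMIs per 10000 in ALB-high cells, 0.574 and 0.531 in mesenchymal-like cells and 0.466 and 0.524 in remaining cells. Its log2 fold change over remaining cells was 0.65 ± 0.07 in ALB-high cells (adjusted p = 2.2e-12) and 0.16 ± 0.06 in mesenchymal-like cells (adjusted p = 0.027), where it rested on replicate 1: the value was 0.29 in that library alone and 0.0085 in replicate 2 alone. The other members of this role are DNAJB11 and DNAJC3, J-domain partners of BiP, and MANF and CRELD2, ER proteins that cells can also secrete. All 4 were called higher in both groups than in remaining cells, with log2 fold changes of 0.20 (DNAJB11) to 0.43 (DNAJC3) in ALB-high cells and 0.17 (DNAJB11) to 0.50 (CRELD2) in mesenchymal-like cells. The ALB-high call of DNAJB11 did not hold with cells thinned to 4000 UMIs (-0.04).

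The 2 lectin chaperones hold newly made glycoproteins in the same folding cycle, and they moved apart. Calnexin (CANX), which spans the membrane, had 3.33 and 3.18 UMIs per 10000 in ALB-high cells, 2.39 and 2.24 in mesenchymal-like cells and 2.26 and 2.26 in remaining cells. Calreticulin (CALR), its soluble relative, had 5.48 and 5.31 UMIs per 10000 in ALB-high cells, 7.93 and 7.56 in mesenchymal-like cells and 6.30 and 6.27 in remaining cells. CANX was thus highest and CALR lowest in ALB-high cells of both libraries. The log2 fold change of ALB-high over mesenchymal-like cells was 0.65 ± 0.05 for CANX (adjusted p = 2.0e-17) and -0.36 ± 0.04 for CALR (adjusted p = 5.7e-11). Over remaining cells CANX rose in ALB-high cells (0.67 ± 0.05), and CALR had -0.08 ± 0.04, which was not called with TMM and was called lower with UMI totals (-0.22).

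The 6 disulfide isomerases form and reshuffle disulfide bonds, and 4 of them were higher and 2 lower in ALB-high than in remaining cells. The shares over all genes were 24.8% higher and 24.4% lower. P4HB, the founding isomerase and a subunit of prolyl 4-hydroxylase and of the microsomal triglyceride transfer protein, had 4.34 and 4.34 UMIs per 10000 in ALB-high cells, 3.32 and 3.37 in mesenchymal-like cells and 2.93 and 3.02 in remaining cells. It was highest in ALB-high cells, with a log2 fold change over remaining cells of 0.69 ± 0.04 (adjusted p = 2.5e-20). TXNDC5 had 0.397 and 0.407 UMIs per 10000 in ALB-high cells, 0.865 and 0.798 in mesenchymal-like cells and 0.683 and 0.684 in remaining cells. It was the member that fell most in ALB-high cells, with a log2 fold change of -0.62 ± 0.07 against remaining cells (adjusted p = 4.4e-11) and -0.90 ± 0.08 against mesenchymal-like cells (adjusted p = 1.4e-15).

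PDIA6, the most abundant isomerase, had 3.44 and 3.42 UMIs per 10000 in ALB-high cells, 5.13 and 4.92 in mesenchymal-like cells and 4.11 and 4.13 in remaining cells. Mesenchymal-like cells were highest and ALB-high cells lowest in both libraries, and the log2 fold change between these groups was -0.39 ± 0.04 (adjusted p = 4.8e-11). Its ALB-high call against remaining cells (-0.12 ± 0.04, adjusted p = 0.017) did not hold with DESeq2, without the replicate block or without dividing cells. PDIA3, which works with the lectins, PDIA4 and PDIA5 were called higher in ALB-high than in remaining cells by 0.20 to 0.31 on the log2 scale. In mesenchymal-like cells the first 2 of these were called higher, by 0.36 (PDIA3) and 0.40 (PDIA4), and PDIA5 had 0.12. Between ALB-high and mesenchymal-like cells the log2 fold change of PDIA3 was -0.16, and it was -0.09 in replicate 2 alone and -0.22 in replicate 1 alone.

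Most genes of ER-associated degradation were higher in ALB-high cells than in either other group. Of the 8 genes, 6 were higher in ALB-high than in remaining cells, against 24.8% of all genes. In mesenchymal-like against remaining cells 1, OS9, was higher, which is near the 12.9% of all genes. In the direct comparison of ALB-high with mesenchymal-like cells, 6 of the 8 were higher and none was lower, against 24.3% and 25.9% of all genes. HERPUD1 is a membrane protein that organises the ubiquitin ligase complex and is strongly induced by ER stress. It had 0.940 and 1.09 UMIs per 10000 in ALB-high cells, 0.600 and 0.598 in mesenchymal-like cells and 0.526 and 0.558 in remaining cells, a 2.05-fold rise in ALB-high over remaining cells (log2 1.04 ± 0.06, adjusted p = 8.4e-23). Within ALB-high cells its level went with few dividing-cell markers (r = -0.358 and -0.209 over 306 and 407 cells); without dividing cells its log2 fold change was 1.11.

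SEL1L and SYVN1 (HRD1) are the scaffold and the ubiquitin ligase of the main degradation complex. SEL1L had 0.765 and 0.804 UMIs per 10000 in ALB-high cells, 0.615 and 0.569 in mesenchymal-like cells and 0.564 and 0.553 in remaining cells (log2 fold change of ALB-high over remaining cells 0.63 ± 0.06, adjusted p = 2.4e-13). SYVN1 had 0.20 and 0.212 UMIs per 10000 in ALB-high cells, 0.114 and 0.124 in mesenchymal-like cells and 0.109 and 0.127 in remaining cells (0.95 ± 0.11, adjusted p = 1.5e-10). Both were highest in ALB-high cells and the values of the other two groups overlapped for SYVN1. The 3′ end of SYVN1 lies within FAU, a ribosomal protein gene on the same strand, so its counts are uncertain; FAU itself had a log2 fold change of -0.06. PDIA5 likewise ends within SEC22A, and 17 of the 31 genes overlap a gene on the opposite strand, which matters only if counting ignored strand. EDEM1, a lectin that hands misfolded glycoproteins to degradation, had 0.276 and 0.265 UMIs per 10000 in ALB-high cells, 0.174 and 0.172 in mesenchymal-like cells and 0.158 and 0.163 in remaining cells. Its log2 fold change was 0.90 ± 0.10 in ALB-high over remaining cells (adjusted p = 7.3e-12).

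OS9, another lectin of this pathway and its most abundant gene here, had 1.07 and 1.13 UMIs per 10000 in ALB-high cells, 1.03 and 0.997 in mesenchymal-like cells and 0.960 and 0.888 in remaining cells. The groups did not overlap, with log2 fold changes over remaining cells of 0.38 ± 0.05 in ALB-high cells (adjusted p = 2.0e-09) and 0.12 ± 0.04 in mesenchymal-like cells (adjusted p = 0.028). SELENOS, a membrane selenoprotein that recruits p97, rose in ALB-high cells by 0.30 on the log2 scale. The derlins DERL1 and DERL2, which form the exit path through the membrane, had log2 fold changes of -0.11 and -0.02 in ALB-high cells and were not called in any of the 3 comparisons with TMM.

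XBP1 mRNA was higher in ALB-high than in remaining cells, and the 3 sensors moved less. XBP1 had 1.5 and 1.38 UMIs per 10000 in ALB-high cells, 0.487 and 0.506 in mesenchymal-like cells and 0.473 and 0.496 in remaining cells. Both ALB-high libraries lay far above all others, which overlapped, and the rise over remaining cells was 3.30-fold (log2 1.72 ± 0.05, adjusted p = 3.0e-34), above 96.5% of genes tested. An XBP1 UMI was found in 85.6% and 74.7% of ALB-high cells, 47.1% and 36.6% of mesenchymal-like cells and 50.4% and 38.6% of remaining cells. After thinning to 4000 UMIs these shares were 41.3% and 38.6%, 17.9% and 16.7%, and 16.5% and 16.7% in the same order of groups, so the excess in ALB-high cells was there at equal depth too. XBP1 is also known to serve the secretory apparatus of cells that export much protein.

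ERN1 had 0.130 and 0.144 UMIs per 10000 in ALB-high cells, 0.092 and 0.103 in mesenchymal-like cells and 0.095 and 0.094 in remaining cells. These are 92 and 83 UMIs in all ALB-high cells, and the log2 fold change over remaining cells was 0.67 ± 0.13 (adjusted p = 2.3e-05); it was 0.18 with thinned cells and was not called there. EIF2AK3 had 0.317 and 0.315 UMIs per 10000 in ALB-high cells, 0.312 and 0.294 in mesenchymal-like cells and 0.313 and 0.305 in remaining cells. ATF6 had 0.571 and 0.571 UMIs per 10000 in ALB-high cells, 0.625 and 0.662 in mesenchymal-like cells and 0.580 and 0.560 in remaining cells. For EIF2AK3 and ATF6 the values of the ALB-high and remaining cells lay close together, with log2 fold changes of 0.17 ± 0.08 (adjusted p = 0.073) and 0.14 ± 0.07 (adjusted p = 0.066). In mesenchymal-like cells ATF6 had a log2 fold change of 0.15 (adjusted p = 0.025), which was 0.23 in replicate 2 alone and 0.09 in replicate 1 alone.

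Both genes of the translocon region rose in ALB-high cells. SEC61B, a subunit of the channel itself, had 2.71 and 2.90 UMIs per 10000 in ALB-high cells, 2.56 and 2.65 in mesenchymal-like cells and 2.48 and 2.59 in remaining cells. The log2 fold change of ALB-high over remaining cells was 0.29 ± 0.05 for SEC61B (adjusted p = 4.4e-07) and 0.49 ± 0.04 for SSR1 (adjusted p = 4.8e-14), a subunit of the translocon-associated complex. SSR1 was also called higher in mesenchymal-like than in remaining cells, by 0.18 on the log2 scale.

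Lists of other genes of the pathway were also counted. The shares over all genes to set beside these counts are 24.8% higher and 24.4% lower in ALB-high cells, and 12.9% higher and 11.7% lower in mesenchymal-like cells. Of 10 genes of the PERK arm, ATF4 among them, 1 was higher and 5 were lower in ALB-high than in remaining cells. In mesenchymal-like against remaining cells none was higher and 8 were lower. Of the 10, CHAC1, ASNS and VLDLR were hardly counted. ALB-high cells outside the 5% with the most HSPA5, a split described below, held 7 and 8, 1 and 1, and 1 and 1 UMIs of them. ATF4, the transcription factor of this arm, fell by 0.47 on the log2 scale in ALB-high cells and by 0.30 in mesenchymal-like cells. PPP1R15A, which ends the translation block, fell by 0.65 in ALB-high cells and by 0.27 in mesenchymal-like cells. DDIT3 (CHOP), a transcription factor linked to cell death, fell by 0.36 in mesenchymal-like cells and had -0.12 in ALB-high cells. ATF3 rose by 0.42 in ALB-high cells and fell by 0.49 in mesenchymal-like cells. ATF4 itself is controlled at translation, which these counts do not measure.

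Counts of the other lists lay partly near the shares over all genes and partly above them. The share called higher was 50% for translocation genes in both groups and for further degradation genes in ALB-high cells. In mesenchymal-like cells it was 58.3% for glycan quality control and 44.4% for oxidative folding. In ALB-high cells it was 25% for glycan quality control and 20% for regulators, and 41.7% and 50% of these were lower. Among 20 genes of translocation, signal peptide cleavage and glycosylation, 10 were higher and 6 lower in ALB-high cells, and 10 higher and 2 lower in mesenchymal-like cells, each against remaining cells. Among 14 further degradation genes the counts were 7 higher and 3 lower in ALB-high cells and 3 higher and 3 lower in mesenchymal-like cells. Of 11 genes of oxidative folding, 9 were tested. Of these, 3 were higher and 3 lower in ALB-high cells, led by the oxidase ERO1B (log2 1.28) and the thioredoxin-like TXNDC11 (0.94) upwards and by TMX3 (-0.81) and TXNDC12 (-0.75) downwards; in mesenchymal-like cells 4 were higher and none was lower. Of 12 genes of glycan quality control and retrieval, 3 were higher and 5 lower in ALB-high cells, and 7 were higher and none was lower in mesenchymal-like cells. The retrieval receptor KDELR3 had -0.82 in ALB-high and 0.51 in mesenchymal-like cells, and the folding sensor UGGT2 had -0.49 and 0.42. Of 10 regulators, 2 were higher and 5 lower in ALB-high cells, and 3 were higher and none lower in mesenchymal-like cells; NFYA, a subunit of the factor that binds CCAAT, had -0.40 in ALB-high cells.

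The genes were next followed from cell to cell within a group. Of the 31, 27 had a UMI in at least 20% of the cells of every group and library, which gave 351 pairs. The median Pearson correlation of a pair over cells was 0.065 and 0.056 in ALB-high cells, 0.057 and 0.047 in mesenchymal-like cells and 0.046 and 0.034 in remaining cells. Over all pairs of genes with a UMI in 20% of cells, the medians were 0.0082 and 0.0090, 0.0065 and 0.0069, and 0.0088 and 0.0078 in the same order of groups. Most pairs were thus close to 0, and the values depend on depth: after thinning to 4000 UMIs the medians were 0.0173, 0.0237 and 0.0154 as means of both libraries. The median over all gene pairs was not taken at that depth, and the pairs were not matched for abundance. For the 8 of 9 chaperones and cochaperones that entered, the median of the 28 pairs was 0.165 and 0.104 in ALB-high cells, 0.148 and 0.132 in mesenchymal-like cells and 0.125 and 0.095 in remaining cells. The 1 pair of lectins, CANX and CALR, had 0.153 and 0.0999, 0.193 and 0.121, and 0.131 and 0.0877 in the same order of groups. The 6 degradation genes that entered had medians of 0.019 and 0.010, 0.046 and 0.014, and 0.025 and 0.0075.

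The pairs named next were among the highest. HSPA5 and HSP90B1 had r = 0.358 and 0.288 in ALB-high cells, 0.469 and 0.394 in mesenchymal-like cells and 0.355 and 0.275 in remaining cells. HSP90B1 and CALR had 0.375 and 0.231, 0.480 and 0.368, and 0.388 and 0.321. HSPA5 and MANF had 0.351 and 0.272, 0.285 and 0.292, and 0.271 and 0.238. Other high pairs were HSP90B1 with PDIA3 (0.237 and 0.260) and HSPA5 with PDIA3 (0.316 and 0.228) in ALB-high cells. In mesenchymal-like cells HSP90B1 with PDIA4 had 0.351 and 0.286, and in remaining cells HSP90B1 with PDIA6 had 0.250 and 0.257. The lowest pairs were weak. EIF2AK3 with SEC61B had -0.110 and -0.032 in mesenchymal-like cells and -0.088 and -0.035 in remaining cells, and EIF2AK3 entered all 3 lowest pairs of the remaining cells.

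**Figure D4:**
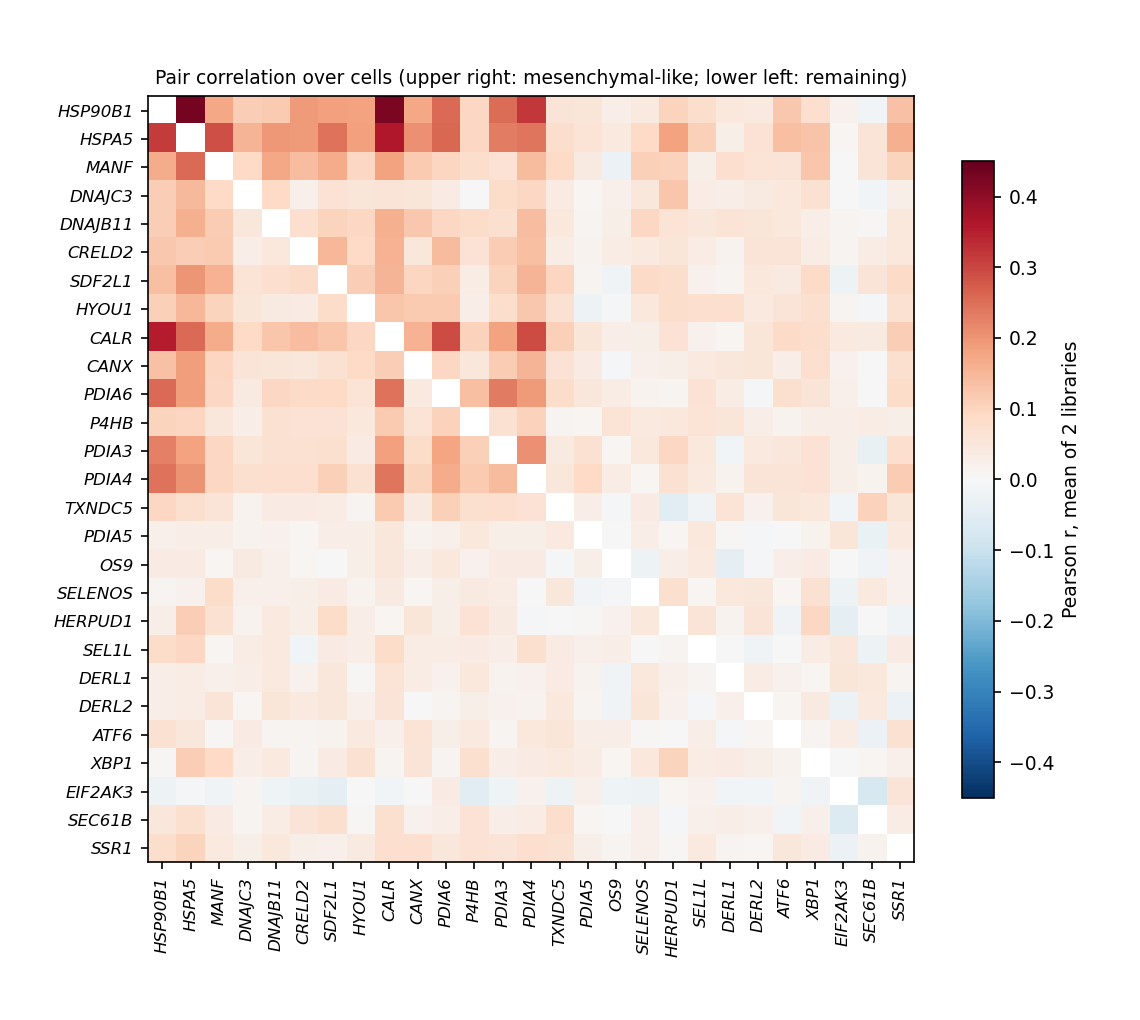
Pearson correlation over cells of each pair of 27 genes, as the mean of the 2 libraries, with mesenchymal-like cells above the diagonal and remaining cells below. A block of HSP90B1, HSPA5, CALR, PDIA4, PDIA6 and PDIA3 is darkest on both sides, and the degradation genes, sensors and translocon genes are pale.

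HSP90B1 was the gene with the highest correlation with HSPA5 of all genes compared, in every group and both libraries. Ranked by the lower of the 2 libraries, the 10 genes closest to HSPA5 held 5 of the 31 genes among 8045 genes in ALB-high cells, 6 among 7276 in mesenchymal-like cells and 7 among 7576 in remaining cells. The other genes of the first 10 were LARP1B, FGG, FGA, CYP51A1 and DCXR in ALB-high cells, with FGG and FGA encoding chains of fibrinogen. They were PPIB, CALU, TMED9 and CKAP4 in mesenchymal-like cells and PPIB, MYDGF and CALU in remaining cells; PPIB is an ER prolyl isomerase and CALU an ER calcium-binding protein. The first 100 genes held 14, 17 and 19 of the 31 genes in the same order of groups. The 8 genes with an ERSE or ERSE-II that entered, HSPA5 left out, had a median r with HSPA5 of 0.218 and 0.194 in ALB-high cells, 0.242 and 0.187 in mesenchymal-like cells and 0.189 and 0.146 in remaining cells. The 16 that entered with a window and neither sequence had 0.104 and 0.100, 0.118 and 0.0988, and 0.0941 and 0.0684. The ranges overlapped in every library, and abundant genes such as HSP90B1 and CALR are among the 8.

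Within ALB-high cells P4HB went with albumin itself more than any other of the 31 genes in both libraries (r = 0.417 over 306 cells, rank 84 of 9749 genes, and 0.306 over 407 cells, rank 115 of 8045). DNAJB9 had 0.213 and 0.208, XBP1 0.190 and 0.225, and HERPUD1 0.179 and 0.168. HSPA5 had 0.018 and 0.087 and HSP90B1 0.002 and 0.047. SYVN1 (0.085 and 0.091), EDEM1 (0.140 and 0.049) and HYOU1 (-0.094 and 0.047), which also rose in ALB-high cells, had lower values than P4HB, DNAJB9, XBP1 and HERPUD1 in both libraries. Other genes that rose there did not split so clearly, with DNAJC3 at 0.203 and 0.142, SEL1L at 0.078 and 0.215 and SEC61B at 0.188 and 0.057. TXNDC5, which fell in these cells, had -0.174 and -0.080. These cells were cut on albumin, and the levels are shares of the same UMIs; the median r with albumin over all genes was -0.056 and -0.042.

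HSPA5 varied widely from cell to cell, most of all in mesenchymal-like cells. With cells thinned to 4000 UMIs, its variance over its mean was 1.62 and 1.41 in ALB-high cells, 2.79 and 3.65 in mesenchymal-like cells and 2.07 and 2.21 in remaining cells, where counting alone gives about 1. In mesenchymal-like cells that was rank 41 of 3438 and rank 25 of 3402 genes. The cell with the most HSPA5 there had 63.8 and 107 UMIs per 10000, against a median cell of 4.00 and 3.59. The sum of the 31 genes had a coefficient of variation of 36.5% and 33.1% in ALB-high cells, 42.5% and 43.1% in mesenchymal-like cells and 35.7% and 37.3% in remaining cells, above the 21.1% to 23.5% that counting alone gives. Sums of other genes were not compared. Among genes with a UMI in 20% of thinned cells, the members had a median variance over mean of 1.09 and 1.13, 1.09 and 1.10, and 1.09 and 1.08 in the same order of groups. All such genes had 1.09 and 1.08, 1.09 and 1.08, and 1.08 and 1.08, so the typical member was near the background.

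The 5% of cells of each group with the highest HSPA5 level were then set beside the other cells of that group. This split was made after the data were seen, HSPA5 chose the cells, and a cell with a high share of 1 gene may differ in others, so what follows is a description with no test. It took 16 and 21 ALB-high, 45 and 49 mesenchymal-like and 163 and 176 remaining cells. In mesenchymal-like cells HSPA5 was at 21.2 and 20.7 UMIs per 10000 in the top cells, against 4.15 and 3.92 in the other cells. There, 17 of the other 30 genes reached 1.5 times the level of the other cells in both libraries, against 0.852% of 7276 genes with a UMI in at least 20% of cells. In ALB-high cells 4 of 30 did, against 0.932% of 8045 genes, and in remaining cells 8 of 30, against 0.211% of 7576 genes. The 30 genes were not held to that 20% limit, so the sets are not fully alike. DNAJB9 and SYVN1, among the 17, were below it in both libraries of mesenchymal-like cells. DNAJB9, among the 8, was below it in both libraries of remaining cells. A ratio above 1 in both libraries was found for 22, 27 and 28 of the 30 genes in ALB-high, mesenchymal-like and remaining cells, against 23.0%, 26.9% and 28.9% of all genes compared.

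HYOU1 had the highest ratio of all 7276 genes in mesenchymal-like cells in both libraries. It was at 1.12 and 0.90 UMIs per 10000 in the top cells, against 0.299 and 0.292 in the other cells, ratios of 3.76 and 3.09 that rest on 73 and 39 UMIs. By the lower of both libraries, SDF2L1 followed with 3.37 and 3.07, PDIA4 with 2.85 and 2.69, HERPUD1 with 2.51 and 2.83, HSP90B1 with 2.54 and 2.50 and DNAJB9 with 2.79 and 2.33. TXNDC5 (0.977 and 1.16), EIF2AK3 (0.987 and 1.44) and SEC61B (1.19 and 1.23) stood near the other cells. In remaining cells, again by the lower of both libraries, DNAJB9 (2.36 and 2.83) and HERPUD1 (2.50 and 2.07) came first of the 30, followed by MANF (2.01 and 2.10), HYOU1 (2.00 and 2.09) and SDF2L1 (1.90 and 2.27). DNAJB9 and HERPUD1, which rose in ALB-high cells, were thus also high in the HSPA5-rich cells of the other groups.

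DDIT3, outside the 31, had ratios of 3.35 and 2.87 in mesenchymal-like cells (35 and 22 UMIs in the top cells), 1.95 and 3.70 in remaining cells (110 and 132 UMIs) and 1.87 and 1.79 in ALB-high cells (10 and 9 UMIs). ATF4 had 1.23 and 0.784 in mesenchymal-like cells and 0.878 and 0.906 in remaining cells. Of the 10 genes downstream of PERK, 1, 2 and 3 were above 1 in both libraries in ALB-high, mesenchymal-like and remaining cells. These counts lay near the shares over all genes compared, 23.0%, 26.9% and 28.9% in the same order. CHAC1, ASNS and VLDLR, among the 10, rested on 0 to 8 UMIs in the top cells. The top cells were shallower and a smaller share of them held dividing-cell markers. In mesenchymal-like cells their median was 14716 and 8217 UMIs, against 15789 and 9925.5 in the other cells, and 42.2% and 55.1% of them held 2 or more dividing-cell markers, against 66.1% and 63.7%. In remaining cells these shares were 58.3% and 51.7%, against 76.6% and 70.1%. The part of depth and cell division in the ratios was not tested. With the top 10% of cells in place of 5%, 1, 13 and 7 of the 30 genes reached 1.5 in both libraries in ALB-high, mesenchymal-like and remaining cells, against 0.348%, 0.261% and 0.119% of all genes compared.

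**Figure D5:**
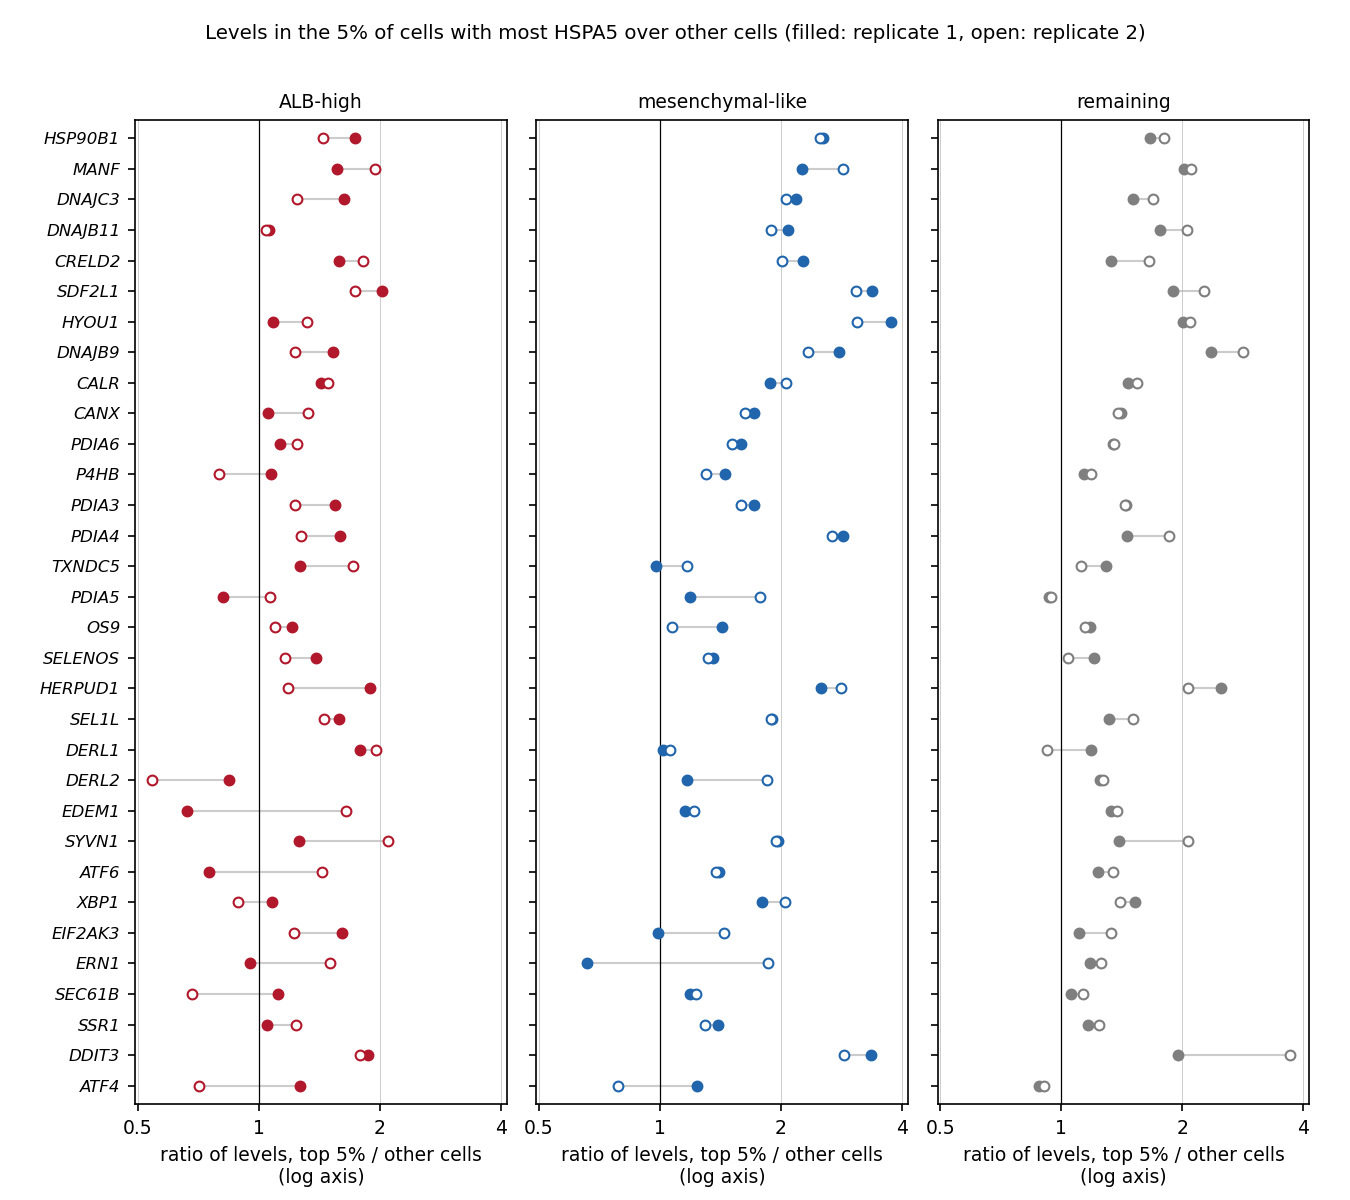
Ratio of the level in the 5% of cells with the most HSPA5 to that in other cells, for the other 30 genes and for DDIT3 and ATF4, on a log axis; filled points are replicate 1 and open points replicate 2. Most genes lie right of 1, and mesenchymal-like cells reach furthest, up to 3.76 for HYOU1.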

How the data were processed

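The deposited files hold raw UMI counts per gene and cell for 2 vehicle libraries, counted with Cell Ranger 7.0.0 per the file headers; STAR and GRCh38 are named in the submitters' processing notes. The annotation release, the use of strand and the handling of intronic reads were not given in any source used here. The 31 genes, the pathway lists and the cell rules were chosen with earlier results of these data known. Cells under 500 genes or 1000 UMIs, or with over 25% of mitochondrial UMIs, were left out, which kept 4454 of 4591 and 4894 of 4998.

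Counts were summed per library and cell group (6 sums) and tested with edgeR 4.0.16 (R 4.3.3): TMM factors, a low-count filter of at least 10 counts in at least 2 sums, a quasi-likelihood fit with the library as a block, since all 3 cell groups come from each library, and Benjamini-Hochberg adjustment over 19626 genes, leaving out the 5 genes of the rule. With 6 sums the fit had 2 residual degrees of freedom, and the variance was moderated across genes (median prior degrees of freedom 51.4). The p-values thus rest mostly on variance shared across genes. The groups were cut on the same counts that were tested. The call threshold was an adjusted p of 0.05. Standard errors are the log2 fold change over the square root of F. Genes named with values were the most abundant of each role, each sensor, those called at an absolute log2 fold change of 0.5 or more, and HSPA5; others are given as ranges. Correlations are Pearson over cells of ln(1 + UMIs per 10000). Cells were thinned to 4000 UMIs where stated. Scrublet called 3 and 0 doublets, which is too few to have worked, so the top 4% of its scores were left out as an alternative. The scripts were tested on simulated data. Alternatives were RLE factors, UMI totals, no low-count filter, no replicate block, DESeq2 1.42.0, thinned cells, ALB limits of 100 and 25, a mesenchymal top 10%, no dividing cells, a 15% mitochondrial limit and each library left out. Python 3.11.15 and scanpy 1.11.5 were used.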

Additional observations from a re-analysis of the deposited data

How the results depend on the processing

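Of the recomputed log2 fold changes of the 31 genes, 1165 were counted as unchanged, 69 lost a call and 33 gained one. Unchanged meant the same direction and side of the threshold, or a change of sign where neither setting made a call. With a library left out there was no call, and unchanged meant a value within a standard error of the main value. In that case 33 values lay further off. Where a call was made, 2 turned sign. These were DNAJB11 in ALB-high against remaining cells with thinned cells (-0.041) and DNAJC3 in ALB-high against mesenchymal-like cells with UMI totals (-0.00065). The count of genes lower in ALB-high than in remaining cells, 2 in the report, was 5 with UMI totals, 5 with no low-count filter, 4 with an ALB limit of 25, and 1 with DESeq2 or without dividing cells. Without the replicate block it was also 1, as PDIA6 was lost (adjusted p = 0.057, edgeR). Over all genes, 6461 were lower with UMI totals, 5484 of 30502 tested with no low-count filter and 4900 of 19508 at an ALB limit of 25. The figures were 3266 with DESeq2, 2964 of 15824 without dividing cells and 4719 without the block, against 4798 in the main fit. Without the block, 14 of the 31 genes were higher in mesenchymal-like than in remaining cells, against 2351 of all genes. With DESeq2, 9 of the 31 were higher there in place of 16. Over all genes 812 were then higher and 721 lower, against 2523 and 2294 with edgeR. Higher and lower counts over all genes there were 1399 and 1197 of 16184 tested with thinned cells. They were 1298 and 1141 of 15824 tested without dividing cells. In the main fit 19626 genes were tested. In ALB-high against mesenchymal-like cells, 11 genes were higher with thinned cells in place of 17, and 12 were lower with UMI totals in place of 6. Thinned cells also gave 2863 higher and 2732 lower of all 16184 genes tested in ALB-high against remaining cells, and 2829 and 2941 against mesenchymal-like cells. Without 1 library there was no residual degree of freedom and no test.

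The median pair correlation, as a mean of both libraries, was 0.0608 in ALB-high, 0.0522 in mesenchymal-like and 0.0399 in remaining cells, with ranges over single libraries of 0.0562 to 0.0654, 0.0474 to 0.0570 and 0.0337 to 0.0461. In ALB-high cells it was 0.0533 on residuals of depth and mitochondrial share, 0.0676 without dividing cells, 0.0724 at an ALB limit of 100 and 0.0173 with thinned cells. In mesenchymal-like cells it was 0.0436 by Spearman and 0.0237 with thinned cells. In remaining cells it was 0.0307 on residuals, 0.0504 without dividing cells and 0.0154 with thinned cells. HSPA5 turned sign with P4HB (-0.000497) and SSR1 (-0.00916) in thinned ALB-high cells. With thinned cells HSPA5 and HSP90B1 kept r = 0.164 and 0.215 in ALB-high, 0.279 and 0.249 in mesenchymal-like and 0.154 and 0.155 in remaining cells. Except where a value shows it, the cause was not tested. Depth limits the rare genes most: ERN1 had under 100 UMIs in the ALB-high cells of each library.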
